A study of Scyliorhinus canicula with 3 samples.

Results

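The retina of the juvenile catshark *Scyliorhinus canicula*, a small shark, was profiled by single-nucleus RNA sequencing, and the genes described here are 7 transcription factors known from amacrine cells. They were chosen by symbol, with earlier results of these data known. They are 7 of the 29017 features of the count tables: LOC119971769 (which the study lists as *pax6*, and which is called *pax6* below), *tfap2a*, *meis2a*, *mafa*, *ebf3a*, *prdm13* and *zfpm2a*. Amacrine cells are the interneurons of the inner retina, most of which release GABA or glycine, while starburst amacrine cells release acetylcholine together with GABA. In vertebrates they arise from progenitors that pass through a state marked by *ptf1a* and *foxn4*, and their later subtypes are told apart by combinations of transcription factors. The levels of the 7 genes were followed through the cholinergic, GABAergic and glycinergic amacrine nuclei and set against the other retinal classes.

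On build sScyCan1.1 the RefSeq gene models lie on 5 chromosomes. *pax6* spans chromosome 9 from 145309889 to 145343613 (33725 bases), and *mafa* lies on the same chromosome from 13765369 to 14159309 (393941 bases). *tfap2a* (179470104 to 179489112) and *zfpm2a* (157185484 to 158078003) are on chromosome 10. *meis2a* is on chromosome 2 (121505634 to 121644478), *ebf3a* on chromosome 16 (44207083 to 44352709) and *prdm13* on chromosome 6 (74520175 to 74529716). Reads were counted over whole genes, introns included, so gene length enters each level, and no level is compared between genes.

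There were 3 libraries, each from 1 retina of 1 female juvenile, with total lengths of 11.0, 10.5 and 11.1 cm, and no treatment or genotype separated them. They held 73310348, 50691314 and 71366924 UMIs (unique molecular identifiers, counting transcripts), and 6053, 4425 and 10154 nuclei within the study's limits, with medians of 3400, 2194 and 2032 UMIs. Library 1 was thus the deepest and library 3 the largest, and pairs of libraries shared between 1 and 16 barcodes. After removal of 3 clusters that came mostly from 1 library, 17509 nuclei fell into 22 clusters, which were named from marker genes that exclude the 7 factors. The names are written as "-like" classes since they were rebuilt here.

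The amacrine-like classes comprised 5 clusters: cluster 12 (cholinergic-like, 508 nuclei), clusters 2 and 13 (GABAergic-like, 2330 nuclei) and clusters 5 and 15 (glycinergic-like, 1271 nuclei). Their transmitter genes, which were used for naming, stood as follows. *chata*, which makes acetylcholine, averaged 669 ± 282 CPM (CPM is the gene's UMIs scaled to 1e6 UMIs of a class or cluster, given as mean ± SD over 3 libraries) in cluster 12, against 6.08 ± 1.82 CPM in cluster 2 and 10.4 ± 2.68 CPM in cluster 5. *gad1*, which makes GABA, averaged 2167 ± 223 CPM in cluster 12, 1314 ± 224 CPM in cluster 2 and 733 ± 255 CPM in cluster 13, against 284 ± 96.5 CPM in cluster 5 and 156 ± 85.6 CPM in cluster 15. The glycine transporter *slc6a5* averaged 549 ± 322 CPM and 592 ± 319.8 CPM in clusters 5 and 15, against 28 ± 10.8 CPM in cluster 2. Cluster 13 had the weakest name, with a mean log2 marker ratio of 0.875 where 0.8 was required. A further cluster of 167 nuclei, cluster 20, reached only 0.488 on the GABAergic list and is described separately under its leading gene, *nts*.

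With the 3 amacrine-like classes merged, all 7 factors were higher in the amacrine-like nuclei than in all other nuclei together. The test was edgeR's quasi-likelihood test on counts summed per library. A gene was called where its adjusted p was under 0.05 and its log2 fold change was at least 1 in size. By that rule 5.78% of 18580 tested genes were called higher and 5.3% lower, and the median log2 fold change was 1.92 over the 7 factors and -0.03 over all genes tested. *mafa* differed most, with 304, 275 and 295 CPM in the amacrine-like nuclei of libraries 1, 2 and 3, against 25, 31.6 and 63.8 CPM in the other nuclei (log2 fold change 3.03 ± 0.29 SE, adjusted p = 0.00226). *pax6* differed least, with 620.0, 317 and 389 CPM in amacrine-like nuclei, against 196, 149 and 175 CPM in the other nuclei (log2 fold change 1.37 ± 0.15 SE, adjusted p = 0.00272). For neither gene did the 3 amacrine-like values overlap those of the other nuclei. The remaining log2 fold changes were 2.13 ± 0.16 for *tfap2a*, 2.04 ± 0.14 for *prdm13*, 1.92 ± 0.21 for *meis2a*, 1.71 ± 0.25 for *zfpm2a* and 1.58 ± 0.26 for *ebf3a*, the last of which missed the threshold without library 2 (adjusted p = 0.0594, range over its alternatives 5.54e-25 to 0.0671). Where nuclei were chosen by their transmitter genes instead of by cluster, *meis2a* fell short of the fold threshold (log2 fold change 0.74, adjusted p = 0.0139, range 9.52e-43 to 0.026). That choice was not limited to amacrine-like clusters. Its glycinergic set needed 2 or more UMIs of the glycine transporters *slc6a9* and *slc6a5* together, and *slc6a9* also averaged 480 ± 76 CPM in rod-like cluster 1. The set held 564, 580 and 1038 nuclei, against 320, 223 and 728 glycinergic-like nuclei by cluster. Which clusters its nuclei came from was not counted. Not every amacrine-like class was higher by itself. By mean, *ebf3a* had 54.2 CPM in GABAergic-like and 46.8 CPM in cholinergic-like nuclei, against 135 CPM in all other nuclei. *meis2a* had 154 CPM in glycinergic-like and 97.3 CPM in cholinergic-like nuclei, against 176 CPM. Cholinergic-like *zfpm2a* (136 against 164 CPM) and *prdm13* (23.8 against 25.4 CPM) were also lower. *pax6*, *tfap2a* and *mafa* had higher means in all 3 classes. The classes were built from the same counts, although without these 7 genes, so the p-values hold for the classes as built. The 7 factors were also chosen with earlier results of these data known. Counts of factors called, here and below, and their median are thus a description and not independent support.

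**Figure D1:**
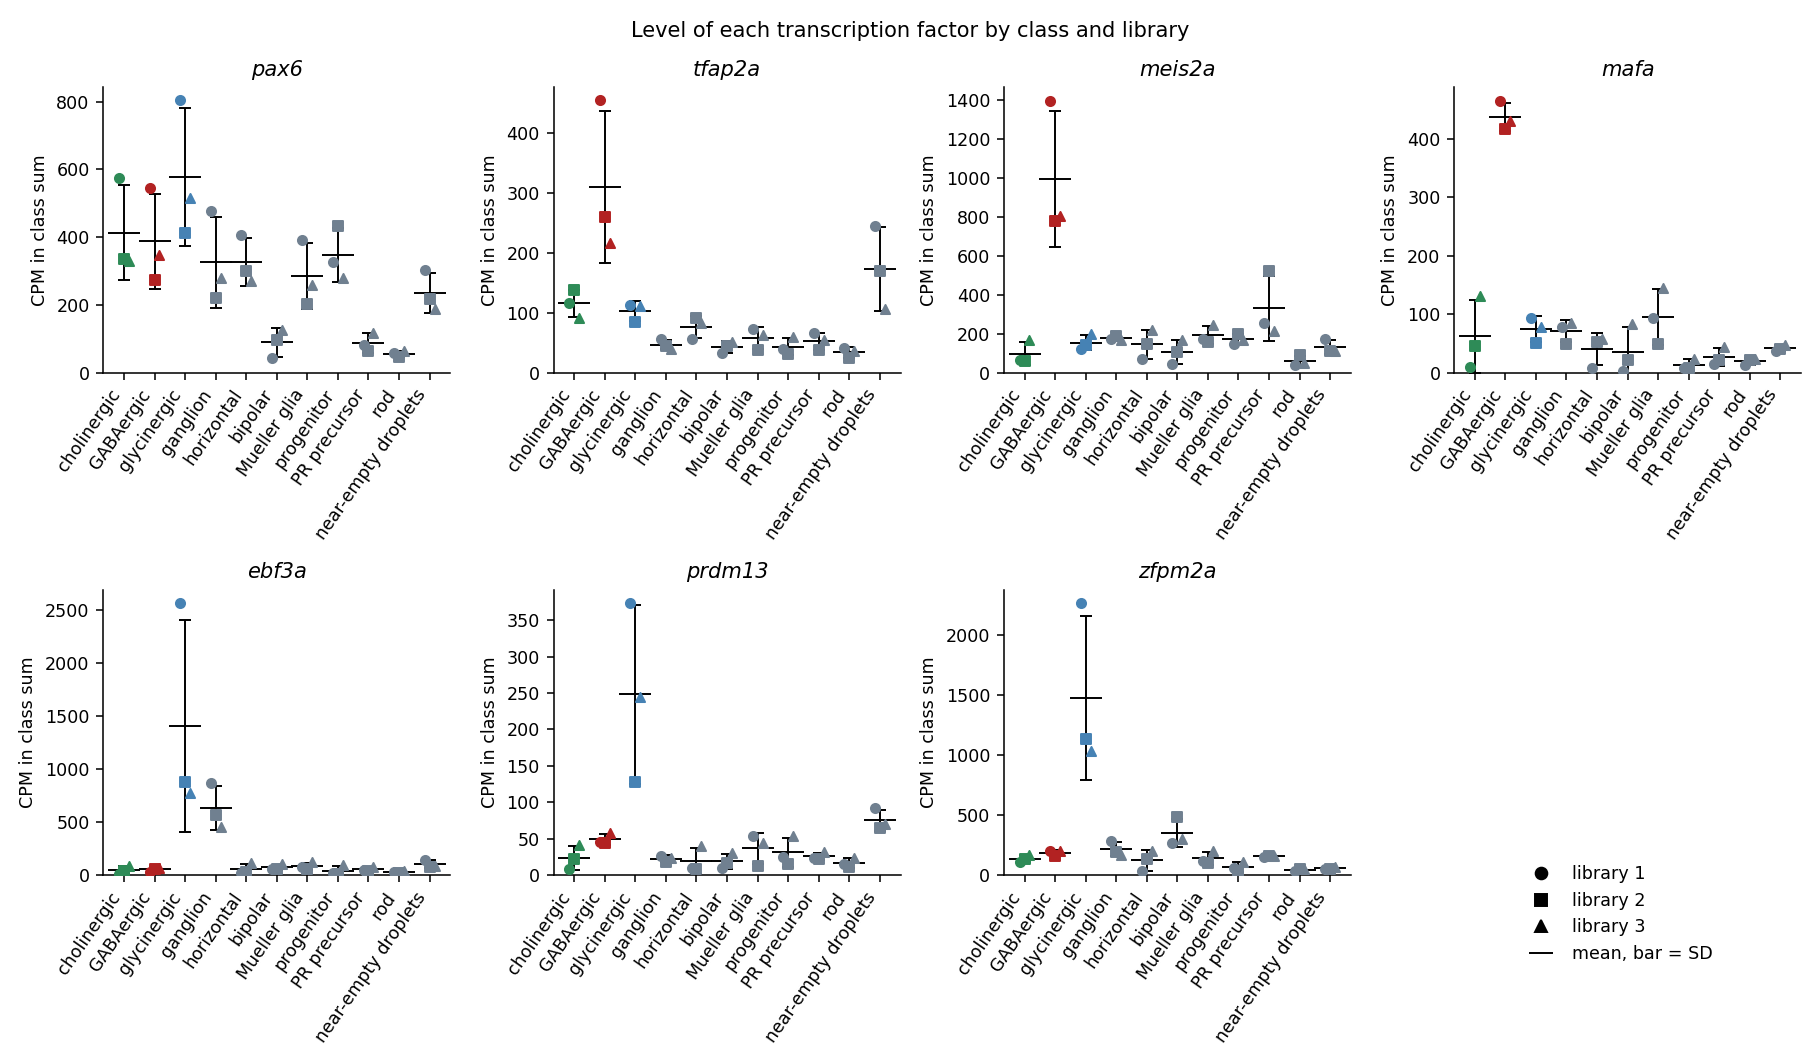
Level of each transcription factor (CPM in the summed counts of a class, linear axis from 0) in the 10 classes and in near-empty droplets, with 1 point per library and black bars for the mean and SD over 3 libraries (bars are clipped at 0). The amacrine-like classes are coloured: *tfap2a*, *meis2a* and *mafa* peak in the GABAergic-like class, *ebf3a*, *prdm13* and *zfpm2a* in the glycinergic-like class, and *pax6* is spread over all 3 and over ganglion, horizontal, Mueller glial and progenitor-like nuclei.

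Near-empty droplets, the shallower barcodes among those with 200 or more features (UMI count up to the median of that set), had median depths of 390, 305 and 481 UMIs. They served as a reference level for background. They may hold damaged nuclei as well as free RNA, which was not tested. There *pax6* stood at 302, 217 and 188 CPM, *tfap2a* at 245, 169 and 106 CPM and *prdm13* at 91.8, 64.4 and 70.0 CPM in libraries 1, 2 and 3, and the other 4 factors averaged between 41.8 ± 5.43 CPM (*mafa*) and 132 ± 36 CPM (*meis2a*). These levels bear on the lower classes. The *tfap2a* level of the cholinergic-like (116 ± 23.2 CPM) and glycinergic-like nuclei (103 ± 16.4 CPM) was below the near-empty mean of 173 ± 69.6 CPM, as was that of *prdm13* in every class except the glycinergic-like one. The *ebf3a* mean was below its near-empty mean of 101 ± 37 CPM in every class except the glycinergic-like and ganglion-like ones. The cholinergic-like *meis2a* mean (97.3 ± 59.8 CPM) was also below its near-empty mean. Such values are not read as expression.

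Most of the 7 factors split the GABAergic-like from the glycinergic-like class, but they did not follow the transmitter throughout. The cholinergic-like cluster 12 had more *gad1* than cluster 2 (means of 2167 and 1314 CPM), but less *meis2a* (97.3 and 874 CPM). The other GABAergic markers *gad2* (140 and 552 CPM) and *slc32a1* (121 and 193 CPM) were lower in cluster 12, as *meis2a* was. Mean *mafa* was 521 CPM in cluster 2 and 77.8 CPM in cluster 13. Mean *ebf3a* was 1916 CPM in cluster 5 and 34.7 CPM in cluster 15, and mean *prdm13* was 325 and 37.7 CPM. *meis2a* and *zfpm2a* were high in both clusters of their highest class. Of the 7, 3 were higher in GABAergic-like than in glycinergic-like nuclei (*tfap2a*, *meis2a* and *mafa*) and 3 were lower (*ebf3a*, *prdm13* and *zfpm2a*), where 2.53% of 13471 tested genes were called higher and 1.78% lower. *pax6* was the exception. It had 545, 272 and 347 CPM in GABAergic-like nuclei, against 804, 412 and 517 CPM in glycinergic-like nuclei, lower in each library, and this difference passed the p threshold but not the fold threshold (log2 fold change -0.59 ± 0.11 SE, adjusted p = 0.00326). Where nuclei were chosen by their transmitter genes instead of by cluster, its direction turned (log2 fold change 0.49, adjusted p = 0.0394, range over its alternatives 9.79e-05 to 1). As said above, that choice was not limited to amacrine-like clusters.

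*meis2a*, a TALE homeodomain factor that marks GABAergic amacrine cells in the mouse, had 66.4, 59.3 and 166 CPM in cholinergic-like nuclei of libraries 1, 2 and 3. It had 1396, 779 and 804 CPM in GABAergic-like nuclei, against 119.8, 143 and 199 CPM in glycinergic-like nuclei. The GABAergic-like libraries were thus all far above both other classes, and the difference was called against glycinergic-like (log2 fold change 2.71 ± 0.29 SE, adjusted p = 5.67e-05) and, in the other direction, for cholinergic-like against GABAergic-like nuclei (log2 fold change -3.29 ± 0.31 SE, adjusted p = 1.33e-05). Within the GABAergic-like class the gene was higher in cluster 13, with 2101, 1206 and 1214 CPM, than in cluster 2, with 1221, 688 and 712 CPM, in each library. Outside amacrine cells the highest mean was in photoreceptor precursor-like nuclei, with 257, 519 and 213 CPM, where library 2 stood above the others.

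*tfap2a*, an AP-2 factor used by amacrine and horizontal cells in the mouse, had 116, 138 and 91.9 CPM in cholinergic-like nuclei, 455, 259.6 and 216 CPM in GABAergic-like nuclei and 113, 83.9 and 111 CPM in glycinergic-like nuclei. The GABAergic-like values did not overlap either of the other classes (log2 fold change 1.50 ± 0.19 SE, adjusted p = 0.000174, GABAergic-like against glycinergic-like). The cholinergic-like level was lower than the GABAergic-like one (log2 fold change -1.37 ± 0.20 SE, adjusted p = 0.000447) and was not shown to differ from the glycinergic-like one (log2 fold change 0.14 ± 0.22 SE, adjusted p = 0.767, 95% interval -0.33 to 0.60). With nuclei chosen by their transmitter genes, however, it was called higher in the cholinergic than in the glycinergic set (log2 fold change 1.50, adjusted p = 7.39e-06, range over its alternatives 7.39e-06 to 0.994). Sets so chosen were not limited to amacrine-like clusters. The GABAergic-like clusters ran opposite to *meis2a*: cluster 13 had 189, 101 and 114 CPM and cluster 2 had 522, 293 and 239 CPM. In libraries 1 and 2 cluster 13 lay below the near-empty 245 and 169 CPM, which is not read as expression. In horizontal-like nuclei *tfap2a* was at 55.3, 91.2 and 82 CPM, below the near-empty mean, and lower than in the amacrine-like nuclei (log2 fold change 1.57 ± 0.27 SE, adjusted p = 0.000343, amacrine-like against horizontal-like).

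*mafa*, a Maf factor by its symbol, was unevenly spread among GABAergic-like nuclei. The study states that many catshark symbols follow zebrafish naming, and which mammalian Maf gene *mafa* matches was not checked. It had 9.32, 46.1 and 130.4 CPM in cholinergic-like nuclei, 465, 417 and 431 CPM in GABAergic-like nuclei and 94.2, 49.8 and 78.7 CPM in glycinergic-like nuclei. Between GABAergic-like and glycinergic-like nuclei the groups did not overlap (log2 fold change 2.57 ± 0.38 SE, adjusted p = 0.000599), but without library 2 the adjusted p was 0.0503 (range over its alternatives 4.09e-28 to 0.0629). Cluster 2 had 575, 499 and 488 CPM, while cluster 13 had 22.8, 33.8 and 177 CPM, of which library 3 was the highest. The gene annotated *mafaa* had at most 2.2 CPM in any amacrine-like class of any library. Its relation to *mafa* was not checked.

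The *mafa* transcripts were concentrated in few nuclei. Of the GABAergic-like nuclei of libraries 1, 2 and 3, 5.96, 6.77 and 5.95% had 10 or more *mafa* UMIs, and those nuclei held 91.9, 82.4 and 84.5% of all *mafa* UMIs of the class. One nucleus held up to 163. For *tfap2a* nuclei with 10 or more UMIs held 27.6, 2.13 and 0.769% of its UMIs, and for *meis2a* 80.3, 51 and 36.1%. This share depends on how many UMIs a gene yields per nucleus, so it does not rank the genes by evenness. Cluster 2 held 35, 27 and 76 of the 35, 27 and 80 *mafa*-rich nuclei. A group picked by the gene's own count after seeing the data is described without a test. These nuclei were also deeper. Their median depth was 7574, 7947 and 6379 UMIs, while that of the other GABAergic-like nuclei was 5755, 5114 and 3364.

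Relative to all their UMIs, the *mafa*-rich nuclei had 172, 113 and 117 CPM of *tfap2a*, against 479, 274 and 227 CPM in the other GABAergic-like nuclei. *pax6* went the same way, at 185, 113 and 257 CPM, against 575, 288 and 357 CPM. *meis2a* went the opposite way, at 1849, 927 and 991 CPM, against 1358, 764 and 784 CPM. So in each of the 3 libraries the nuclei rich in *mafa* were lower in *tfap2a* and *pax6* and higher in *meis2a*. The other nuclei include those of cluster 13, which differed from cluster 2 by mean. It had more *pax6* (584 against 342 CPM) and *meis2a* (1507 against 874 CPM) and less *tfap2a* (135 against 351 CPM). The part of cluster make-up in these differences was not tested. In libraries 1 and 2 the *tfap2a* of the *mafa*-rich nuclei lay below the near-empty 245 and 169 CPM, and their *pax6* below 302 and 217 CPM. Those values are not read as expression. *gad1* was higher in the *mafa*-rich nuclei in libraries 1 and 2 and lower in library 3, at 1661, 1162 and 1093 CPM, against 1444, 1038 and 1112 CPM.

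**Figure D2:**
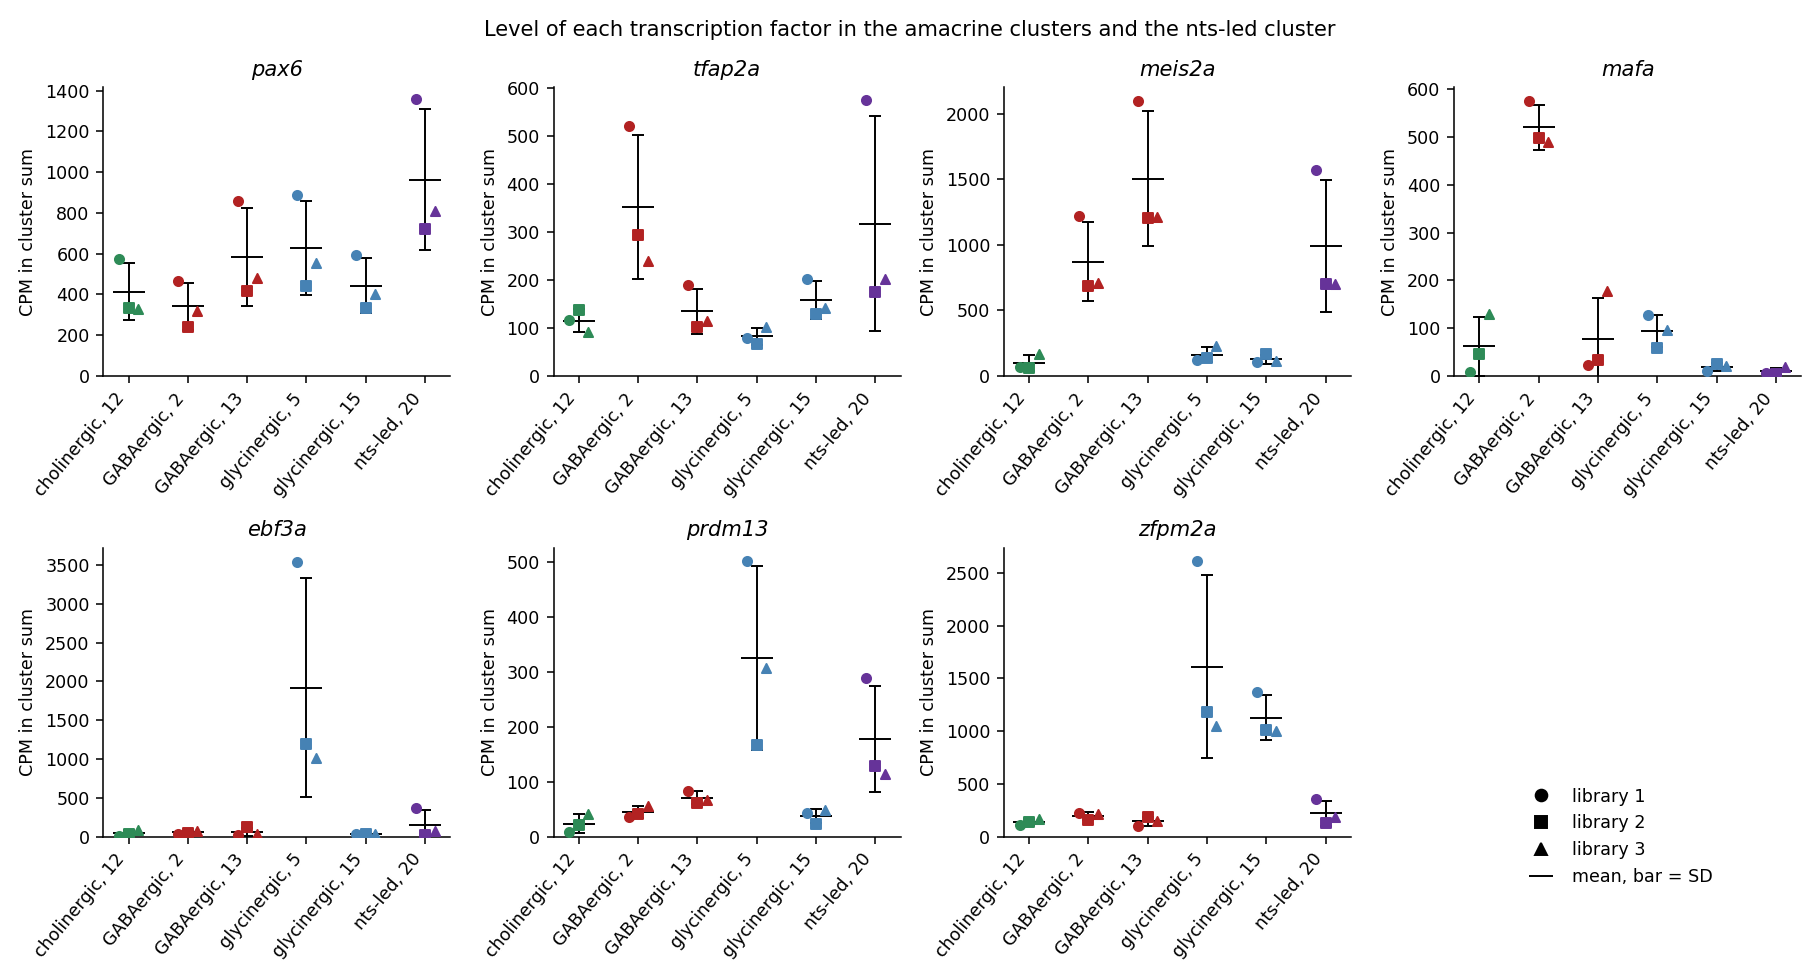
Level of each transcription factor (CPM in the summed counts of a cluster, linear axis from 0) in the 5 amacrine-like clusters and the *nts*-led cluster, with 1 point per library and black bars for the mean and SD over 3 libraries (bars are clipped at 0). *mafa* is higher in GABAergic-like cluster 2 than in the other clusters, *ebf3a* and *prdm13* are high in glycinergic-like cluster 5 and low in cluster 15, and *zfpm2a* is high in both glycinergic-like clusters.

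On the glycinergic side, *zfpm2a* (Friend of GATA 2, a cofactor of GATA factors needed for heart development in the mouse) had 108, 134 and 167 CPM in cholinergic-like nuclei, 203, 160.1 and 202 CPM in GABAergic-like nuclei and 2267, 1135 and 1035 CPM in glycinergic-like nuclei. It was lower in GABAergic-like (log2 fold change -2.94 ± 0.24 SE, adjusted p = 9.98e-06) and in cholinergic-like nuclei (log2 fold change -3.33 ± 0.26 SE, adjusted p = 1.76e-06) than in glycinergic-like ones. Both glycinergic-like clusters carried it. Cluster 5 had 2613, 1180.4 and 1046 CPM and cluster 15 had 1373, 1015 and 1001 CPM, so every library of both clusters stood above every library of the other amacrine-like classes.

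*ebf3a*, a COE-type factor of postmitotic neurons, had 14, 37.3 and 89.2 CPM in cholinergic-like nuclei, 31, 61.3 and 70.5 CPM in GABAergic-like nuclei and 2561, 877 and 778 CPM in glycinergic-like nuclei. Library 1 was about 3 times as high as the others in the glycinergic-like class, yet all 3 libraries stood above every library of the other amacrine-like classes (GABAergic-like against glycinergic-like, log2 fold change -4.66 ± 0.54 SE, adjusted p = 0.000103). It separated the glycinergic-like clusters. Cluster 5 had 3540.3, 1191 and 1016 CPM, whereas cluster 15, whose mean *slc6a5* level was no lower, had 35.1, 32.2 and 36.9 CPM, which is below the near-empty level. Of the nuclei of cluster 5, 116, 35 and 83 (51.8%, 21.6% and 16.6%) had 10 or more *ebf3a* UMIs, and of those of cluster 15, 0 did in each library.

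*prdm13*, a zinc-finger factor that acts in amacrine subtype choice in the mouse, followed *ebf3a*. It had 8.15, 22 and 41.2 CPM in cholinergic-like nuclei, 45.1, 44.7 and 58.2 CPM in GABAergic-like nuclei and 373, 128 and 244 CPM in glycinergic-like nuclei (GABAergic-like against glycinergic-like, log2 fold change -2.30 ± 0.28 SE, adjusted p = 0.000132). Cluster 5 had 501, 167 and 308 CPM and cluster 15 had 42.9, 22.5 and 47.7 CPM. The *ebf3a*-rich nuclei of the class, again chosen by their own count and given without a test, had 589, 168 and 332 CPM of *prdm13*, against 217, 116 and 220.1 CPM in the remaining glycinergic-like nuclei. Their *zfpm2a* level was 4079, 2067 and 1587 CPM, against 961, 859.7 and 883 CPM. *mafa* was also higher in them in each library, at 215, 84.2 and 110 CPM, against 7.5, 39.6 and 70.2 CPM. *pax6* was lower in each, at 620, 283 and 430 CPM, against 937, 450 and 540 CPM. *tfap2a* and *meis2a* were lower in libraries 1 and 2 and higher in library 3. In libraries 1 and 2 *tfap2a* lay below the near-empty 245 and 169 CPM in both groups of nuclei. *meis2a* in library 1 lay below the near-empty 174 CPM in both groups. Those directions are not read. All *ebf3a*-rich nuclei lay in cluster 5, while the remaining glycinergic-like nuclei include cluster 15. Cluster 5 as a whole, which includes the *ebf3a*-rich nuclei, had *prdm13* at 501, 167 and 308 CPM, as given above. The *prdm13* of the *ebf3a*-rich nuclei was close to that in library 2 and higher in libraries 1 and 3, and their *zfpm2a* was higher in every library. In library 1 they made up 51.8% of the cluster. The whole thus understates their difference from its other nuclei, which were not summed apart. Against the remaining glycinergic-like nuclei, their *gad2* was lower in libraries 1 and 2 and higher in library 3, at 31.2, 23 and 165 CPM, against 106, 82.7 and 131 CPM. The *ebf3a*-rich nuclei had a median depth of 5420.0, 5158 and 4911 UMIs, and the remaining ones of 4706, 3516 and 2569.

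The cholinergic-like nuclei were low in most of the 7 factors. None of the factors was called higher in them and 3 were called lower than in GABAergic-like nuclei (*tfap2a*, *meis2a* and *mafa*), where 2.75% of tested genes were called higher and 3.53% lower. With nuclei chosen by their transmitter genes, *mafa* just missed the threshold (log2 fold change -1.83, adjusted p = 0.05002, the highest of its alternatives, of which the lowest was 2.78e-27). Against glycinergic-like nuclei 3 were again called lower (*ebf3a*, *prdm13* and *zfpm2a*) and none higher, beside 3.6% of genes called higher and 3.33% lower. *pax6* had 574, 334 and 329.8 CPM, higher than in GABAergic-like nuclei of the same animal in libraries 1 and 2 and lower in library 3 (log2 fold change 0.14 ± 0.11 SE, adjusted p = 0.509, 95% interval -0.10 to 0.39, cholinergic-like against GABAergic-like). The estimates for *ebf3a* (95% interval -1.36 to 1.23) and *zfpm2a* (95% interval -0.93 to 0.15) against GABAergic-like nuclei were not called and leave room for differences of either sign. For *ebf3a* the means of both classes (46.8 and 54.2 CPM) lay below the near-empty mean, so its sign is not read. For *meis2a* against glycinergic-like nuclei, the difference (log2 fold change -0.58 ± 0.31 SE, adjusted p = 0.283) was called only without library 3 (log2 fold change -1.03, adjusted p = 0.0453, range over its alternatives 0.00577 to 0.965). Both comparisons share the cholinergic-like sums.

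**Figure D3:**
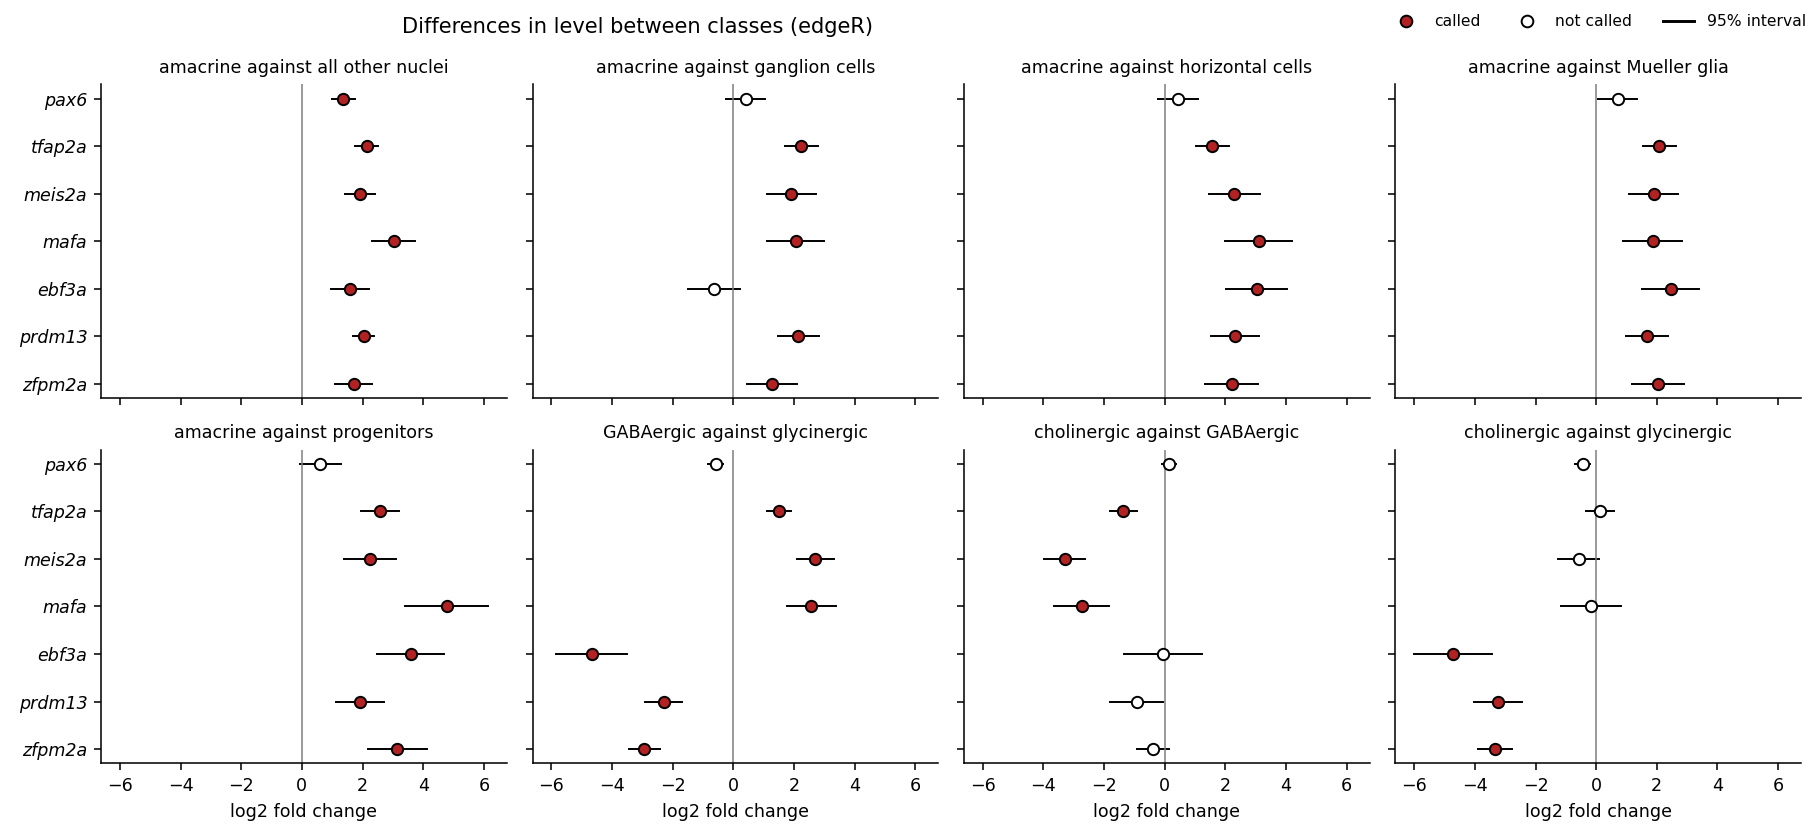
Log2 fold changes of the 7 transcription factors (points) with 95% intervals (lines) in 8 comparisons of summed counts, the class named first over the class named second. Amacrine stands for the 3 amacrine-like classes merged. Filled points passed both thresholds: 7 of 7 against all other nuclei, beside 5.78% of tested genes called higher and 5.3% lower. Between GABAergic-like and glycinergic-like nuclei 3 passed on each side, beside 2.53% and 1.78% of tested genes. The 7 genes were chosen with earlier results of these data known, so these counts are a description.

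Against single classes, *pax6* was not called. *pax6*, a paired-box homeodomain factor that progenitors need and that amacrine, ganglion and horizontal cells keep in the mouse, had 477, 220.5 and 279.5 CPM in ganglion-like, 406, 301 and 270.0 CPM in horizontal-like, 392, 204 and 259.9 CPM in Mueller glia-like and 326, 434 and 279 CPM in progenitor-like nuclei. In the amacrine-like nuclei it had 620.0, 317 and 389 CPM, which was higher than in ganglion-like, horizontal-like and Mueller glia-like nuclei of the same animal in all 3 libraries, and higher than in progenitor-like nuclei in libraries 1 and 3. In the fit with library as a block, none of the differences was called (0.41 ± 0.31, 0.43 ± 0.32, 0.71 ± 0.31 and 0.61 ± 0.33 on the log2 scale, adjusted p = 0.467, 0.493, 0.123 and 0.181). In order of mean level the neighbours from glycinergic-like down to Mueller glia-like nuclei all overlapped in range, and a gap followed before bipolar-like (42.8, 96.8 and 127 CPM), photoreceptor precursor-like (81, 62.1 and 118 CPM) and rod-like nuclei (56.4, 44.5 and 62.4 CPM). Those last classes stood below the near-empty level of *pax6*. In library 2 Mueller glia-like nuclei were also below the near-empty 217 CPM, and ganglion-like nuclei were close to it, so their *pax6* is not set apart from the near-empty level there.

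Against ganglion-like nuclei, with the 3 amacrine-like classes merged, 5 of the 7 factors were called higher and none lower. Of 15368 tested genes 2.71% were called higher and 4.2% lower. *ebf3a* and *pax6* were not called. *ebf3a* was at 726, 285 and 259 CPM in amacrine-like nuclei, against 865, 571 and 458 CPM in ganglion-like nuclei (log2 fold change -0.63 ± 0.41 SE, adjusted p = 0.384, 95% interval -1.49 to 0.23). In glycinergic-like nuclei alone it was higher than in ganglion-like nuclei of the same animal in all 3 libraries, a difference that was not tested. *zfpm2a* passed narrowly (log2 fold change 1.28 ± 0.40 SE, adjusted p = 0.0392). It missed the threshold without library 2 (log2 fold change 1.35, adjusted p = 0.263), without library 3 (1.31, 0.149), with the 5% mitochondrial limit (1.20, 0.0685) and without the library block (1.28, 0.141). It also missed it once the shallow ganglion-like cluster 10 was taken out of its class (1.11, 0.0902), an alternative chosen after seeing the data. The adjusted p ranged over 4.65e-05 to 0.263. That cluster also held *gad1* at 1446 ± 1069 CPM, and the part of it in the result was not tested beyond this. *mafa* missed it without library 2 (adjusted p = 0.184, range 2.4e-05 to 0.184).

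Of the 7 factors, 6 were called higher than in horizontal-like nuclei (background 4.29% higher, 3.62% lower), 6 than in Mueller glia-like nuclei (7.56% and 8.5%) and 6 than in progenitor-like nuclei (11.3% and 9.57%), with none called lower. *pax6* was the exception in all 3. The widest of these differences was that of *mafa* from progenitor-like nuclei, where it had 8.01, 7.61 and 23.8 CPM (log2 fold change 4.78 ± 0.66 SE, adjusted p = 1.08e-05). Those levels came from 7, 1 and 15 UMIs and lay below the near-empty 37.3, 40.3 and 47.8 CPM. They are not read as expression, and the size of the difference rests on them. Against Mueller glia-like nuclei, with 93, 48.7 and 144 CPM, *mafa* missed the threshold without library 2 (adjusted p = 0.181, range 6.73e-05 to 0.181). *prdm13* had 25.2, 15.2 and 54 CPM in progenitor-like nuclei (log2 fold change 1.91 ± 0.38 SE, adjusted p = 0.000568). These comparisons also merge the 3 amacrine-like classes, and single classes could lie lower. Mean *ebf3a* was 54.2 and 46.8 CPM in GABAergic-like and cholinergic-like nuclei, against 85 CPM in Mueller glia-like nuclei. Mean *meis2a* was 154 and 97.3 CPM in glycinergic-like and cholinergic-like nuclei, against 172 CPM in progenitor-like nuclei. Of the early amacrine factors, *foxn4* had 1.76, 1.58 and 2 CPM in GABAergic-like nuclei, against 61.8, 53.2 and 60.3 CPM in progenitor-like nuclei.

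Outside the amacrine-like classes, *zfpm2a* was high in single clusters. In bipolar-like nuclei it had 266, 485 and 299.7 CPM, and it was highest in cluster 17, which was led by *prkd3* and *rerg*, held *trpm1a* among its leading genes, and had 762, 997 and 547 CPM. The other bipolar-like clusters had 107, 191 and 215 CPM (cluster 9) and 33.4, 88.7 and 139 CPM (cluster 16). Every library of cluster 17 thus stood above every library of those clusters. The oligodendrocyte-like cluster 21, too small for the class comparisons with 15, 15 and 17 nuclei, had 1007, 179 and 572 CPM from 74, 9 and 39 UMIs.

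The cluster led by *nts* (neurotensin) was described by the same 7 genes. Its 48, 31 and 88 nuclei had *pax6* at 1359, 723 and 808 CPM, *meis2a* at 1576, 703 and 703 CPM and *tfap2a* at 576, 174 and 202 CPM in libraries 1, 2 and 3. *prdm13* stood at 288, 128 and 115 CPM, against 35.5, 41.2 and 56.2 CPM in cluster 2 and 83.6, 60.9 and 67.1 CPM in cluster 13. *mafa* stood at 5.94, 5.13 and 18.1 CPM, from 2, 1 and 6 UMIs. The other genes of the glycinergic side did not follow *prdm13*, with *zfpm2a* at 356, 128 and 184 CPM and *ebf3a* at 365, 20.5 and 66.3 CPM, against 2613, 1180.4 and 1046 CPM and 3540.3, 1191 and 1016 CPM in cluster 5. In each library its *prdm13* level was thus above that of both GABAergic-like clusters, and its *gad1* level was 1024, 462 and 712 CPM. Counting it as amacrine, an alternative chosen after seeing the data, changed no call on the 7 factors. The comparisons among the 3 amacrine-like classes did not include it and could not change.

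Single nuclei gave the same split at equal depth. After thinning each nucleus to 1000 UMIs, *meis2a* was counted in 6.72, 5.19 and 9.39% of cholinergic-like, 58.1, 48.9 and 45.5% of GABAergic-like and 8.75, 11 and 11.3% of glycinergic-like nuclei in libraries 1, 2 and 3, against 3.8, 7.46 and 4.01% of rod-like nuclei, which serve as the background here. *zfpm2a* was counted in 6.72, 5.19 and 11.7%, 13.3, 11.2 and 14% and 65.3, 55.3 and 55.9% of the same classes, against 3.28, 4.87 and 3.9% of rod-like nuclei. Before thinning the *zfpm2a* share was 87.2, 79.8 and 79.9% in glycinergic-like nuclei with medians of 5059, 3843 and 2788 UMIs, against 9.08, 9.5 and 7.66% in rod-like nuclei with medians of 3044, 1884.5 and 1623 UMIs. For *prdm13* the cholinergic-like shares were 1.68, 1.3 and 1.94%, against 1.56, 0.895 and 2.09% of rod-like nuclei, which is read as background. Thinned nuclei with none of the 7 transcripts made up 46.2%, 51.9% and 49.5% of cholinergic-like, 11.9%, 19.1% and 20.7% of GABAergic-like and 8.44%, 12.3% and 12.6% of glycinergic-like nuclei. Few amacrine-like nuclei were too shallow, since 1026, 689 and 2352 of 1026, 701 and 2382 reached 1000 UMIs.

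**Figure D4:**
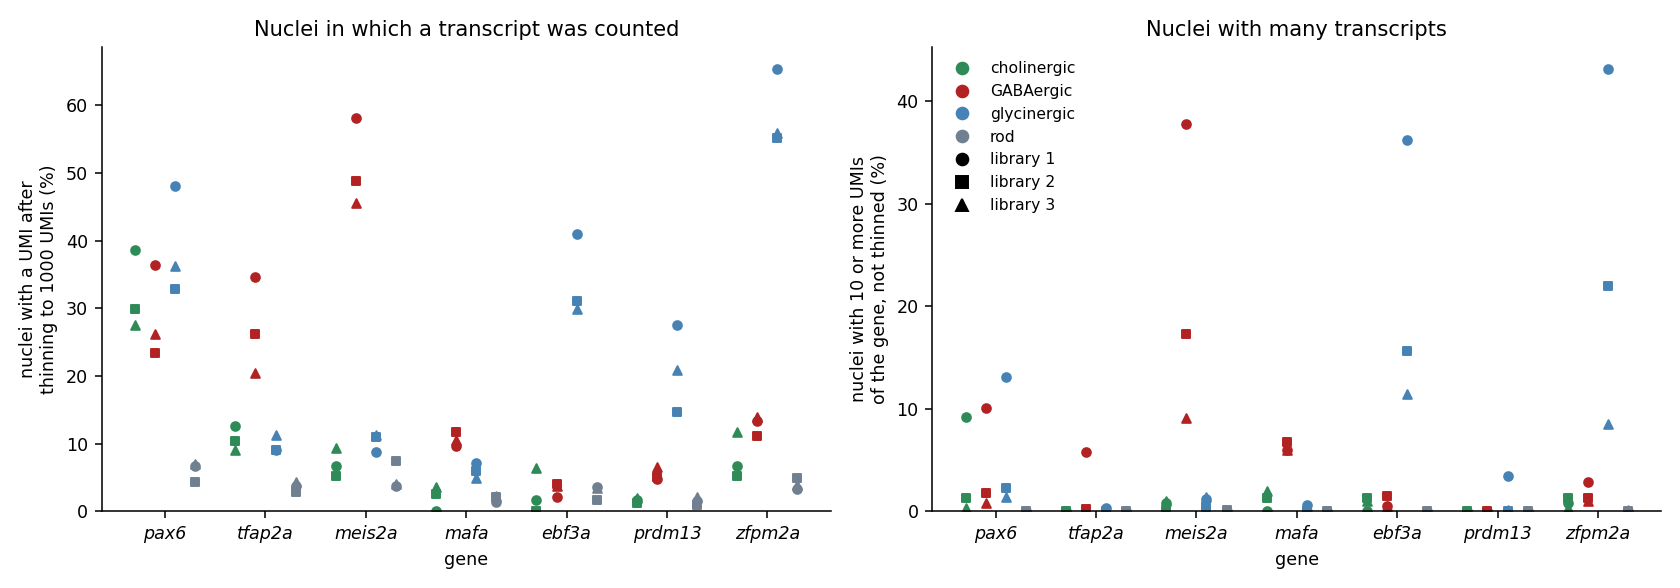
Share of nuclei with at least 1 UMI of each gene after thinning to 1000 UMIs (left) and share with 10 or more UMIs before thinning (right), both in percent, with 1 point per library (marker shape) in the cholinergic-like, GABAergic-like, glycinergic-like and rod-like classes (colour). *zfpm2a* reaches 55.3% to 65.3% of glycinergic-like nuclei, while *mafa* stays at 9.71% to 11.7% of GABAergic-like nuclei although 5.95% to 6.77% hold 10 or more UMIs.

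The genes whose levels ran most closely with each factor over the 30 class sums (10 classes in 3 libraries, which share depth within a library) were named by Pearson's r of log2(CPM + 10). *tfap2a* ran with *gad2* (0.89), the AP-2 gene LOC119967479 (*tfap2b-l*, 0.89) and the vesicular GABA and glycine transporter *slc32a1* (0.88). *prdm13* ran with both glycine transporters, *slc6a5* (0.90) and *slc6a9* (0.85), and with LOC119962089 (0.88), while *ebf3a* ran with LOC119963843 (0.93), *ebf1a* (0.93) and *cpne7* (0.91). Since *gad2*, *slc32a1*, *slc6a5* and *slc6a9* were among the markers that named the classes, their place as partners is not independent of the naming. *zfpm2a* ran with *ajap1* (0.91), *ptprt* (0.89) and *vwc2l* (0.88), and *mafa* with LOC119977116 (0.92), LOC119956232 (0.89) and *slitrk4* (0.88). *pax6* ran with LOC119973419 (0.91), LOC119965900 (0.89) and LOC119964463 (0.89). *meis2a* had the loosest partners, *cnksr2a* (0.79), LOC119964936 (0.79) and LOC119973445 (0.76). Among the 7 themselves the closest pairs were *ebf3a* with *zfpm2a* (0.80), *prdm13* with *zfpm2a* (0.75) and *tfap2a* with *mafa* (0.74).

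A list of other retinal transcription factors gave the setting. Of the listed symbols 43 were in the files and 37 were tested against all other nuclei. Their median log2 fold change was 0.39, and 10 were called higher and 7 lower in amacrine-like nuclei, beside 5.78% and 5.3% of tested genes. The AP-2 relatives were among them: *tfap2b-l* had 246, 215 and 227 CPM in cholinergic-like, 421, 344 and 285 CPM in GABAergic-like and 131, 97 and 136 CPM in glycinergic-like nuclei, and had the largest difference of the 10 (log2 fold change 2.97 ± 0.32). *ebf1a*, the relative of *ebf3a*, had 25.4, 27.3 and 49.7 CPM in GABAergic-like nuclei, against 859, 484 and 673 CPM in glycinergic-like nuclei (-4.32 ± 0.23), and 1057, 633 and 654 CPM in ganglion-like nuclei. Between GABAergic-like and glycinergic-like nuclei 34 were tested, with 9 called higher and 4 lower (median 0.03), beside 2.53% and 1.78% of all tested genes. *prdm8b*, among the 9, was at 173, 121 and 163 CPM in GABAergic-like nuclei, against 41.4, 28.8 and 56.6 CPM in glycinergic-like nuclei. Other listed factors stood higher outside the amacrine-like classes. By mean over libraries, *nfia* had 1238 CPM in glycinergic-like and 1712 CPM in bipolar-like nuclei. *rorb* had 470 CPM in glycinergic-like and 1192 CPM in progenitor-like nuclei, and *casz1* 158 CPM in GABAergic-like and 835 CPM in rod-like nuclei.

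Some other factors of that list were high in cholinergic-like nuclei. Against glycinergic-like nuclei 6 were called higher and 7 lower of 34 tested, beside 3.6% and 3.33% of all tested genes. Against GABAergic-like nuclei 4 were called higher and 8 lower, beside 2.75% and 3.53% of all tested genes. The 4 were *isl1*, *sox2*, *tfap2d* and *barhl2*, the first of which marks starburst amacrine cells in the mouse. *isl1* (LOC119962784) had 247, 136 and 141 CPM in cholinergic-like nuclei, against 3.53, 5.53 and 11 CPM in GABAergic-like nuclei (log2 fold change 4.62 ± 0.30 SE, adjusted p = 4.8e-07). *sox2* had 272, 127 and 141 CPM in cholinergic-like nuclei, against 5.04, 5.53 and 6.98 CPM in GABAergic-like nuclei (log2 fold change 4.92 ± 0.24 SE, adjusted p = 2.35e-08). For both, every cholinergic-like library was at least 10 times the GABAergic-like one of the same animal. *tfap2d* reached 304, 222 and 166 CPM and *barhl2* 159.5, 134 and 136 CPM in cholinergic-like nuclei, against 59.4, 45.1 and 37.1 CPM and 60.0, 32.4 and 51 CPM in GABAergic-like nuclei.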

How the data were processed

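Nuclear RNA of 3 retinas was sequenced with the Chromium 3′ v3.1 kit, and the authors deposited unfiltered UMI counts per gene and barcode, made with STARsolo (STAR 2.7.10a) on build sScyCan1.1 with introns counted. Deposited counts were used as given, with 37 mitochondrial features left out and 23489 features kept. The study's limits on UMIs, features and mitochondrial share (10%) were applied per library. Doublets were called from artificial nearest neighbours at 4%, which recovered only 7.64% to 17.8% of planted ones. Nuclei were normalized (SCTransform 0.4.2), integrated and clustered (Seurat 5.3.0, 2000 features, 30 components, resolution 0.5) without the 7 genes among the features, and 3 clusters with no retinal name and at least 80% of nuclei from 1 library were set aside. A cluster took the name of a marker list with a mean log2 ratio of at least 0.8 and at least 3 markers higher. These naming thresholds were set after seeing the data. A class was analysed with at least 20 nuclei in each library, which leaves out oligodendrocyte-like nuclei.

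For each class, the counts of a library were added up and tested with edgeR 4.0.16 (quasi-likelihood, two-sided, filterByExpr, TMM, library as a block, Benjamini-Hochberg over all genes tested). A run on simulated sums gave all genes the same spread and set no difference between animals. It therefore does not show how the test performs on these sums. A gene was called at adjusted p under 0.05 and an absolute log2 fold change of at least 1. Sums of the same library come from the same animal and were paired by design. The 3 libraries are separate animals of 1 condition. The text names the 7 genes and some, not all, of the listed other factors at 50 CPM or more in an amacrine-like class. *foxn4*, *mafaa* and the *nts*-led cluster were chosen after their values were seen. The text also names the 3 genes most alike to each member among those with at least 50 CPM in a class. The members and lists were chosen with earlier results of these data known. UMI totals limit precision. Intervals and SEs come from the fit with library as a block, in which the estimate of spread borrows from other genes. Each SE was back-calculated, as the absolute log2 fold change over the square root of the test's F statistic, and the intervals use it. The intervals cover the spread of class differences within the 3 animals, not the spread in level between animals. Alternatives were resolution 0.3 and 0.8, no doublet removal, the members among the features, log normalization, a 5% mitochondrial limit, nuclei chosen by transmitter genes, thinning, DESeq2 1.42.0 (size factors, test), no filter, no block, and each library left out.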

Additional observations from a re-analysis of the deposited data

Results flagged for a closer look

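Signals of 2 factors appeared in clusters that no comparison used, above the level of near-empty droplets by the lower bound of an exact 95% Poisson interval, which covers counting error only. In the epithelium-like cluster set aside from library 1 (646 nuclei), *pax6* stood at 342 CPM, against 302 CPM in near-empty droplets, and *meis2a* at 312 CPM, against 174 CPM. In the set-aside cluster with the blood cell genes *ptprc* and *lcp1* among its leading genes, *meis2a* stood at 183 CPM in library 2 (27 UMIs in 145 nuclei), against 112 CPM in near-empty droplets. In that cluster the *meis2a* level of library 3, which held most of its nuclei, was 106 CPM, against 111 CPM.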

How the results depend on the processing

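Of the pairs of a factor and a comparison, 42 were called and 14 were not, and over all alternatives 662 of 679 values of the called pairs kept direction and call, 17 missed a threshold and 0 turned direction. All 7 factors kept their highest class mean in an amacrine-like class in each alternative that changed the nuclei, classes or libraries. With nuclei chosen by transmitter genes this compares the chosen sets with the pooled rest only, and *pax6* was then highest in the cholinergic set. Those sets were not limited to amacrine-like clusters. Counting the *nts*-led cluster as amacrine could not change the highest class, since its nuclei entered none of the classes ranked. Nuclei chosen by transmitter genes gave *pax6* 0.49 (log2, GABAergic against glycinergic) and 0.76 (cholinergic against glycinergic). The same choice gave, for cholinergic against GABAergic, *ebf3a* 1.43 and *zfpm2a* 0.52, and for cholinergic against glycinergic *meis2a* 0.36 and *mafa* 1.35. These turned direction, none having been called. It also called *tfap2a* higher in cholinergic than glycinergic nuclei (1.50), and *meis2a* against all others (0.74) and *mafa* in cholinergic against GABAergic nuclei (-1.83) lost their calls. The direction of *ebf3a* in cholinergic against GABAergic nuclei also turned, at 0.067 without doublet removal, 0.28 with the members among the features, 0.21 after thinning, and -0.98 to 0.19 over the libraries left out. In the main setting both of its class means lay below the near-empty mean. In cholinergic against glycinergic nuclei *meis2a* was 0.058 under log normalization and -1.03, then called, without library 3, *mafa* was 0.043 with the members among the features and -1.64 to 0.64 over the libraries left out, and *tfap2a* was -0.10 to 0.39. The causes were not tested.

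Counts of genes called moved with the settings. Without the replicate block, 1050 genes were called against all other nuclei (2057 with it), 429 against ganglion-like (1062), 668 against horizontal-like (1216), 206 for GABAergic against glycinergic (581), 477 for cholinergic against GABAergic (845) and 575 for cholinergic against glycinergic (933). Which genes these share was not counted. Without it *mafa* lost 3 calls and *ebf3a*, *prdm13* and *zfpm2a* 1 each. With the 5% mitochondrial limit *pax6* was at 0.99 against all others. Nuclei chosen by transmitter genes gave 906 against all others and 516 for cholinergic against GABAergic. Thinning gave 1916 (3208 without it) against progenitor-like nuclei and 374 for GABAergic against glycinergic, and *prdm13* was then called in cholinergic against GABAergic nuclei (-1.67). Leaving out each library gave 1369 to 2021 against all others, 438 to 1163 against ganglion-like, 504 to 1045 against horizontal-like, 1558 to 2268 (2468 with all) against Mueller glia-like, 2342 to 2711 against progenitor-like nuclei, 415 to 603 for GABAergic against glycinergic, 690 to 863 for cholinergic against GABAergic and 741 to 966 for cholinergic against glycinergic. The lowest count came without library 2 except against progenitor-like nuclei, where it came without library 1. At resolution 0.3 Mueller glia-like and progenitor-like nuclei fell into 1 cluster, so those comparisons have no value there. Log normalization and the 5% limit left 761 and 729 glycinergic-like nuclei, in place of 1271. Doublets may remain, as the caller found 7.64% to 17.8% of planted ones.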
